A study of Mus musculus with 6 samples.

Results

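The mTOR pathway was followed through 9 of its genes, Mtor, Rptor, Rictor, Tsc1, Tsc2, Rheb, Rps6kb1, Eif4ebp1 and Ddit4, on arrays of tissue labelled hypothalamus from DIO mice given GSK-J4 or vehicle. All probes listed under these symbols were taken, whichever transcript record they were designed from, which gave 24 of the 56605 probes of the array and 9 of its 37074 gene names. DIO stands for diet-induced obesity. All 6 arrays come from male C57BL/6J DIO mice fed a diet with 60 kcal% fat for 16 weeks from 6 weeks of age, with tissue taken at ZT 6 h (hours after lights on). In the GSK-J4 group 3 mice received 30 mg kg−1 of the compound, an inhibitor of the H3k27me3 demethylases that include Kdm6a, and in the vehicle group 3 mice received a dose of 0. GSK-J4 was given to the whole animal. The description of the series places the arrays at day 4 and assigns a separate mouse to each experiment, so each array is 1 mouse. Values are the deposited normalized signals on the log2 scale, where a difference of 1 is a doubling.

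mTOR is a kinase that sits in 2 complexes, named mTORC1, which holds Raptor (Rptor), and mTORC2, which holds Rictor. mTORC1 is switched on by the small GTPase Rheb when amino acids and insulin are plentiful, and it promotes protein synthesis through the S6 kinase (Rps6kb1) and the translation repressor 4E-BP1 (Eif4ebp1), while the Tsc1-Tsc2 complex switches Rheb off and Ddit4, a gene induced by stress and glucocorticoids, acts through that complex. In the hypothalamus the pathway is known for linking nutrients and leptin to feeding.

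The probes are 60 bases long, and 4 that come from RefSeq mRNA and carry contrasting results are shown here. Each can be read in at least 1 frame without a stop codon, but its place in the coding sequence was not looked up. G and C are in capitals, because the difference between the groups followed GC content on these arrays, and coordinates are on mm9 as in the files. The first lies across an exon junction of Rheb, minus strand, chr5:24309516-24312817, and was lower in GSK-J4. The second lies across an exon junction of Rps6kb1, minus strand, chr11:86346290-86347534, and was not called. The others lie within Rictor on the plus strand, at chr15:6709565-6709624, where the signal was lower, and at chr15:6727958-6728017, where it was not called.
Rheb A_66_P123117: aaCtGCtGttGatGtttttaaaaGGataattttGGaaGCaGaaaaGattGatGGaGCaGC
Rps6kb1 A_52_P170486: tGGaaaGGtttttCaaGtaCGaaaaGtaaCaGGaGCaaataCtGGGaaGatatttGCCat
Rictor A_52_P550602: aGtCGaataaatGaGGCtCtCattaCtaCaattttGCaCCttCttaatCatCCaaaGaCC
Rictor A_51_P218948: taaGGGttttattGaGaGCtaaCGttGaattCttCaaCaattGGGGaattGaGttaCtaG
All 4 hold between 35% and 36.7% G and C.

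The arrays labelled vehicle share 1 slide and 1 scan and those labelled GSK-J4 another, and treatment therefore cannot be told apart from slide in these values. The share of probes well above background was 62.8% to 63.6% on the vehicle arrays and 57.7% to 58.7% on the GSK-J4 arrays. Of 12 markers of the hypothalamus, 6 were well above background on all 6 arrays, and the transcription factors Sim1 and Nkx2-1 were on none. The peptide genes Avp, Pmch and Trh were well above background on only 3 of 6 arrays, whereas all 5 markers of cortex and hippocampus were on all 6, Neurod6 among them, and of these Neurod6 was lower in GSK-J4 (-0.47, limma adjusted p = 0.0335) and Emx1 higher (0.53, 0.0373). The label hypothalamus is therefore not fully borne out by its defining genes. Of the 6 measured on all 6 arrays, Npy and Pomc were higher in GSK-J4 by 0.42 and 0.85 (log2, limma adjusted p = 0.0267 and 0.022). The others were not called, with -0.25 for Gad1 (limma adjusted p = 0.0723), 0.81 for Hcrt (0.0586), 0.09 for Oxt and 0.16 for Slc17a6. Vehicle 1 stood apart by 6 markers of choroid plexus, whose summed signal was 110089 there, 3166 and 3353 on the other vehicle arrays and 2917 to 12402 on the GSK-J4 arrays. The summed signal of 4 microglia markers ranged from 5952 to 6763 in vehicle and from 7760 to 8100 in GSK-J4, without overlap, and none of the 4 was called. The single markers were not uniform, with log2 differences of 0.58 for Aif1, 0.30 for Cx3cr1, -0.01 for P2ry12 and 0.03 for Tmem119. The part of tissue composition in the results was not tested, and values without Vehicle 1 are given beside the called probes of the 9 genes and some of the others. In bulk tissue, fewer cells of a type and less RNA per cell cannot be told apart.

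A probe was tested when every array of at least 1 group showed it well above background, and 23 of the 24 were. In the test across all 34443 such probes with limma, 1 probe of the pathway genes was higher in GSK-J4 at an adjusted p of at most 0.05, that of Eif4ebp1, and 4 were lower, 1 each of Mtor, Rheb, Rictor and Rps6kb1. Among all probes tested, 8.39% were higher and 8.42% lower by the same rule, compared with 4.35% and 17.4% of the pathway probes. The called probe of Rps6kb1 was well above background on the vehicle arrays only, so it entered the test through the group in which it is high, and the count of 4 is not evidence for it. When only the 30940 probes well above background on all 6 arrays were tested, 2 of 19 pathway probes were higher (10.5%, beside 10.9% of all) and 4 lower (21.1%, beside 9.05%), the lower ones being 1 of Mtor, 1 of Rheb and 2 of Rictor. By the thresholds in the study's methods (1.5-fold or more, with an unadjusted limma p of at most 0.05), 2 of 23 pathway probes were higher and 2 lower, beside 1651 (4.79%) and 2706 (7.86%) of all 34443. Of the 2 lower, 1 is the same Rps6kb1 probe that entered through the vehicle arrays. Among probes well above background on all 6 arrays, 2 of 19 were higher and 1 lower, beside 1549 and 1893 of all 30940. The vehicle and GSK-J4 values did not overlap for 11 pathway probes, and this held for 45.6% of all probes. The median difference of the 23 probes was -0.10, beside 0.02 over all probes.

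**Figure D1:**
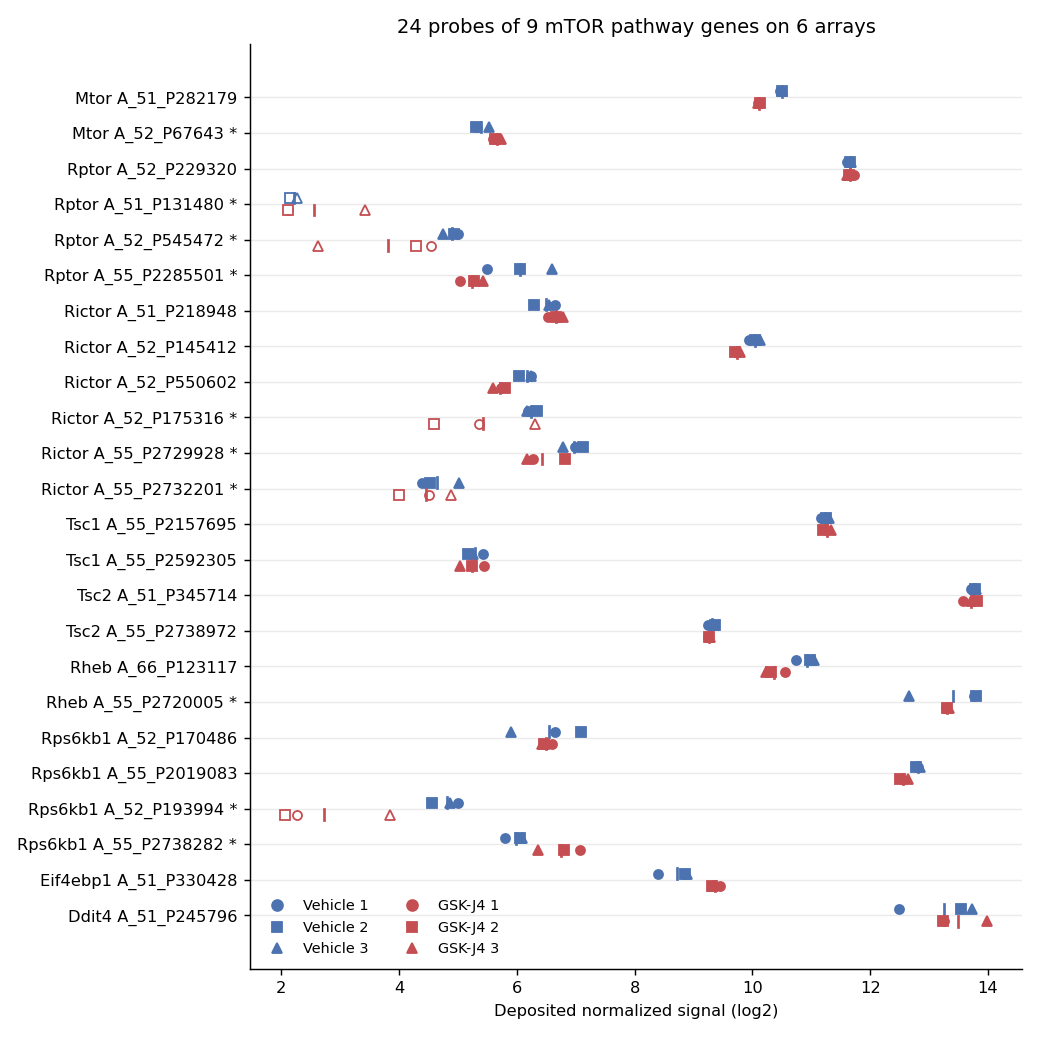
Deposited log2 signal (x axis) of the 24 probes of the 9 genes (y axis) on each of 6 arrays, blue for vehicle and red for GSK-J4, with the marker shape giving the replicate number and a bar at the group mean. Open markers are groups in which fewer than 3 arrays were well above background, and an asterisk marks probes of clones or Ensembl transcripts; Vehicle 1 (blue circle) is the lowest array for Ddit4 and Eif4ebp1.

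Mtor encodes the kinase itself and has 2 probes. Its RefSeq mRNA probe A_51_P282179 (chr4:147931250-147931309, 35% GC) read 10.48, 10.50 and 10.51 in vehicle and 10.10, 10.14 and 10.09 in GSK-J4. All GSK-J4 arrays lay below all vehicle arrays, and the arrays of a group differed by far less than the groups did. The signal fell by 0.38 on the log2 scale (standard error 0.06, n = 3 per group), a 1.30-fold decrease with a limma adjusted p of 0.0222. Without Vehicle 1 the difference was -0.39 with an adjusted p of 0.0694. The other probe, A_52_P67643, was designed from an Ensembl transcript 102 kb nearer the 5′ end of the gene and went the other way. It read 5.33, 5.31 and 5.52 in vehicle and 5.60, 5.63 and 5.74 in GSK-J4, with no overlap, and its difference of 0.27 (95% confidence interval 0.05 to 0.49) was not called (adjusted p = 0.0906). The 2 probes of Mtor thus differed in sign, and only the mRNA probe was called.

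Rheb, the GTPase that switches mTORC1 on, gave the largest difference among the called RefSeq mRNA probes that were lower. The exon-junction probe A_66_P123117 shown above read 10.74, 10.98 and 11.05 in vehicle and 10.55, 10.32 and 10.24 in GSK-J4. Every GSK-J4 array was below every vehicle array, with the gap smallest between Vehicle 1 and GSK-J4 1. The difference was -0.55 (standard error 0.13), a 1.47-fold decrease (limma adjusted p = 0.0386), and it was -0.65 without Vehicle 1 (adjusted p = 0.0691). A second probe, A_55_P2720005, from an Ensembl transcript, read 13.76, 13.80 and 12.67 in vehicle and 13.29, 13.30 and 13.33 in GSK-J4, with Vehicle 3 as the lowest array. Its difference of -0.10 (interval -0.87 to 0.67, adjusted p = 0.837) was not called and was 0.08 without Vehicle 1. Runs of 16 bases of this probe, such as GaaaCCCtGtCtCaaa, also occur in 10 probes of other genes on the array and in 16 of 32851 RefSeq promoter sequences (GRCm38.p6, both strands), whereas each of the other 23 pathway probes shared such a run with at most 1 probe of another gene and at most 2 promoters.

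The genes of the inhibitory complex, Tsc1 and Tsc2, had 2 probes each, all from RefSeq mRNA, and none was called. Tsc1 A_55_P2157695 read between 11.17 and 11.30 in vehicle and between 11.19 and 11.34 in GSK-J4, a difference of 0.02 (interval -0.17 to 0.22). Tsc2 A_51_P345714 read between 13.71 and 13.80 in vehicle and between 13.58 and 13.82 in GSK-J4, a difference of -0.05 (interval -0.27 to 0.16). The groups overlapped for all 4 probes, and the widest of the 4 intervals, that of Tsc1 A_55_P2592305, ran from -0.38 to 0.28 around a difference of -0.05. The differences of the Tsc1 probes changed sign without Vehicle 1, to -0.01 for A_55_P2157695 and 0.02 for A_55_P2592305.

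Rptor, the scaffold of mTORC1, has 4 probes. The RefSeq mRNA probe A_52_P229320 read 11.61, 11.66 and 11.67 in vehicle and 11.73, 11.64 and 11.61 in GSK-J4. The groups overlapped, and the difference of 0.01 (interval -0.16 to 0.19) was not called (adjusted p = 0.912). The clone probe A_55_P2285501 read 5.50, 6.05 and 6.60 in vehicle and 5.03, 5.27 and 5.42 in GSK-J4, which do not overlap, and with -0.81 it was past the thresholds of the methods as lower but not called after adjustment (adjusted p = 0.102), and the difference was -1.08 without Vehicle 1. The Ensembl transcript probe A_52_P545472 was well above background on all vehicle arrays and on no GSK-J4 array. It entered the test through the vehicle arrays alone and was not called (limma adjusted p = 0.183, interval of the difference -2.33 to 0.17). With GSK-J4 values raised to the lowest signal well above background on each array, the GSK-J4 mean was 1.30-fold lower. This is a bound on the difference of the means and not a confidence limit, and the interval includes no change. The fourth probe, A_51_P131480, was well above background on no array and was not tested.

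Rictor, the defining subunit of mTORC2, has 6 probes over 41.0 kb, of which 3 come from RefSeq mRNA. The probe nearest the 5′ end of these, A_52_P550602, read 6.23, 6.04 and 6.24 in vehicle and 5.73, 5.80 and 5.60 in GSK-J4, with no overlap. It fell by 0.46 (standard error 0.10; limma adjusted p = 0.0318), a 1.38-fold decrease, and by 0.43 without Vehicle 1 (adjusted p = 0.094). The probe nearest the 3′ end, A_52_P145412, read 9.95, 10.04 and 10.13 in vehicle and 9.71, 9.71 and 9.79 in GSK-J4, again with no overlap. Its difference of -0.30 (interval -0.50 to -0.10) missed the threshold, with an adjusted p of 0.0542. Between them, A_51_P218948 read 6.64, 6.30 and 6.54 in vehicle and 6.53, 6.66 and 6.79 in GSK-J4, and its difference of 0.16 (interval -0.13 to 0.46, adjusted p = 0.368) was not called. The mRNA probes of Rictor were therefore not uniform, with 2 below vehicle on every GSK-J4 array and 1 that overlapped. The 3 clone probes had differences of -0.55, -0.82 and -0.18 with adjusted p between 0.102 and 0.66, and 2 of them were not well above background on every GSK-J4 array. Leaving out 1 array moved the second, A_52_P175316, to between -1.27 and -0.40, with an adjusted p of 0.0415 at the lowest, and the third, A_55_P2732201, to between -0.39 and 0.05.

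Rps6kb1 encodes the S6 kinase that phosphorylates ribosomal protein S6, and its 4 probes differed most among themselves. The brightest, the RefSeq mRNA probe A_55_P2019083 near the 3′ end, read 12.81, 12.78 and 12.85 in vehicle and 12.53, 12.51 and 12.64 in GSK-J4. All GSK-J4 arrays were lower, by 0.26 on average (interval of the difference -0.44 to -0.08), and the probe was not called (adjusted p = 0.0635). The exon-junction probe A_52_P170486 shown above read 6.64, 7.09 and 5.90 in vehicle and 6.60, 6.46 and 6.42 in GSK-J4. The vehicle arrays lay on both sides of all GSK-J4 arrays, and the interval of the difference, -0.78 to 0.68, did not exclude a change of 1.5-fold either way.

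The other 2 probes of Rps6kb1 come from cDNA clones and moved in opposite directions. A_52_P193994 read 5.01, 4.56 and 4.86 in vehicle and 2.27, 2.06 and 3.85 in GSK-J4, where it was well above background on no array. It passed the filter through the vehicle arrays alone. Its adjusted p of 0.0407 in limma (0.115 without Vehicle 1) therefore rests on GSK-J4 values near background. Only a bound on the difference of the means can be given, a mean at least 1.24-fold lower in GSK-J4. A_55_P2738282, at the 5′ end of the probed region, read 5.79, 6.06 and 6.09 in vehicle and 7.07, 6.80 and 6.37 in GSK-J4. All GSK-J4 arrays were higher, and the difference of 0.76 (standard error 0.20), a 1.70-fold rise past the thresholds of the methods, had an adjusted p of 0.0504 and was the nearest to the threshold of the probes not called.

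**Figure D2:**
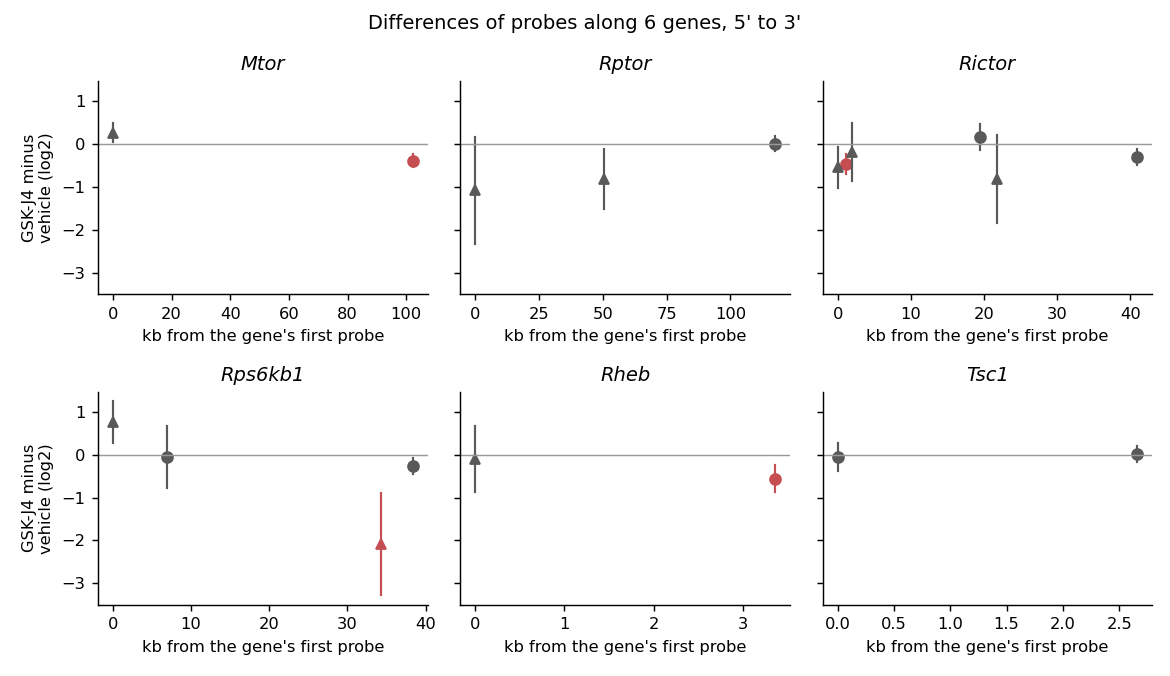
Difference between the groups (y axis, GSK-J4 minus vehicle, log2) against distance in kb from the first probe of the gene, 5′ to 3′ (x axis), for 6 genes with several tested probes. Circles are RefSeq mRNA probes, triangles clones or Ensembl transcripts, red is an adjusted p of at most 0.05 and lines are 95% confidence intervals. Mtor, Rptor, Rictor, Tsc1 and Rps6kb1 have probes on both sides of 0. Rps6kb1 A_52_P193994 and Rptor A_52_P545472 were well above background on no GSK-J4 array, so only bounds are given for them in the text.

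Eif4ebp1 encodes 4E-BP1, which holds back cap-dependent translation until mTORC1 phosphorylates it, and was the only gene of the 9 with a probe called higher. Its single probe, A_51_P330428 (RefSeq mRNA, chr8:28385887-28385946, 55% GC), read 8.40, 8.85 and 8.88 in vehicle and 9.44, 9.31 and 9.33 in GSK-J4. Every GSK-J4 array was above every vehicle array, and Vehicle 1 was the lowest of the 6. The rise was 0.65 (standard error 0.15, interval 0.28 to 1.01), which is 1.57-fold (limma adjusted p = 0.0388). Without Vehicle 1 it was 0.49 with an adjusted p of 0.0659.

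Ddit4, the stress-induced inhibitor of mTORC1, varied more within the groups than between them. It read 12.49, 13.54 and 13.72 in vehicle and 13.26, 13.24 and 13.99 in GSK-J4, so that the groups overlapped. Vehicle 1, the array with the high choroid plexus signal, was the lowest of all. The difference of 0.25 (interval -0.70 to 1.19, adjusted p = 0.672) was not called and became -0.13 without Vehicle 1 (adjusted p = 0.762). The interval includes a fall of 1.5-fold and a rise of 1.5-fold, so a change of that size was not detectable with 3 arrays per group. Across the 6 arrays the signals most like that of Ddit4 among 30940 probes were those of Ube2s, Zfp1, Nasp, 6330403L08Rik and Tceal5, with Pearson r from 0.985 to 0.997. For the brighter probe of Mtor they were those of Edem3, C77370, Fgd4, Clec18a and Lrrn3, with r from 0.998 to 0.999. These correlations rest on 6 arrays that share 2 slides. In the Mtor set the probes of all 5 genes were lower in GSK-J4, by 0.36 to 1.08 on the log2 scale. That direction follows from the choice, since they were picked for likeness to an Mtor probe that was itself lower on every GSK-J4 array.

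Called by record, 1 of the 14 RefSeq mRNA probes of the pathway genes was higher (7.14%) and 3 were lower (21.4%). Over all probes these shares were 8.39% and 8.42%, and at the GC contents of the 14 they averaged 5.43% and 11.25%. Of the 9 tested probes from clones and Ensembl transcripts 0 were higher and 1 was lower (11.1%). That 1 is Rps6kb1 A_52_P193994, which was well above background on no GSK-J4 array. For a single probe an exact permutation test of 3 arrays against 3 has 20 orders and cannot give a two-sided p below 0.1, the value reached by the 11 probes without overlap. All 5 calls were lost when Vehicle 1, Vehicle 2, Vehicle 3 or GSK-J4 1 was left out. Of the 23 probes 8 to 11 then had an unadjusted limma p of at most 0.05. Without Vehicle 1 that p was reached by 9 pathway probes, beside 10467 of all 34874. Without Vehicle 2 it was reached by 8, beside 9606 of all 34752. Over all probes, 11, 25 and 19 were called without Vehicle 1, 2 and 3 and 2414 without GSK-J4 1. Without GSK-J4 2 there were 3 pathway calls and without GSK-J4 3 there were 4.

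The base composition of the probes accompanied these differences. Among all 7292 tested probes with 35% GC, 15.3% were called lower and 1.69% higher, with a median difference of -0.15, whereas among the 2617 with 55% GC, 22.6% were called higher and 1.53% lower, with a median of 0.24. Of the 23 pathway probes 13 had 35% GC, and their median GC was 35% beside 43.3% over all probes. At the same GC contents as the 23 probes, on average 13.2% of all probes were called lower and 4.33% higher, next to 17.4% and 4.35% of the pathway probes. The called Mtor and Rheb probes have 35% GC, the called Rictor probe 36.7% and the only probe called higher, that of Eif4ebp1, 55%.

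After a correction for GC content within each array, none of the 5 calls remained. The difference became -0.21 for Mtor A_51_P282179 (limma adjusted p = 0.0826), -0.39 for Rheb A_66_P123117 (0.099), -0.36 for Rictor A_52_P550602 (0.0643) and 0.38 for Eif4ebp1 (0.143), each in the direction it had before, and the adjusted p of Rps6kb1 A_52_P193994 was 0.0617. In their place Mtor A_52_P67643, with 26.7% GC, was called higher by 0.71 (adjusted p = 0.0327), and Rps6kb1 A_55_P2738282 by 0.93 (adjusted p = 0.04). Only 70 tested probes have 26.7% GC, so the correction of this Mtor probe rests on few probes. It was called in 1 of 19 alternatives, that of GC correction, and the Rps6kb1 probe in 6 of 19. Among all 34443 probes 1485 were called higher and 2120 lower after the correction. The part of GC content in the differences was otherwise not tested, and as all GSK-J4 arrays lie on 1 slide, it cannot be told apart from slide or treatment.

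**Figure D3:**
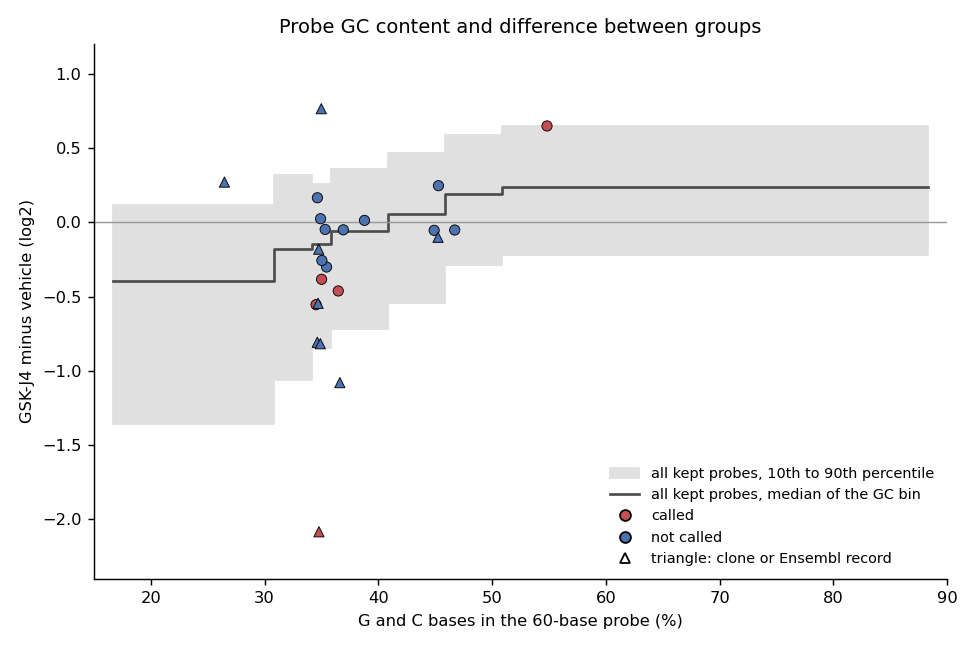
Difference between the groups (y axis, GSK-J4 minus vehicle, log2) against the GC content of the probe (x axis, %), with the median (line) and the range from the 10th to the 90th percentile (grey) of all tested probes in 7 bins of GC content. Circles are RefSeq mRNA probes of the pathway genes, triangles their clone or Ensembl probes, red is called and blue is not; 13 of the 23 sit at 35% GC (spread slightly for view), where the median of all probes was -0.15.

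**Figure D4:**
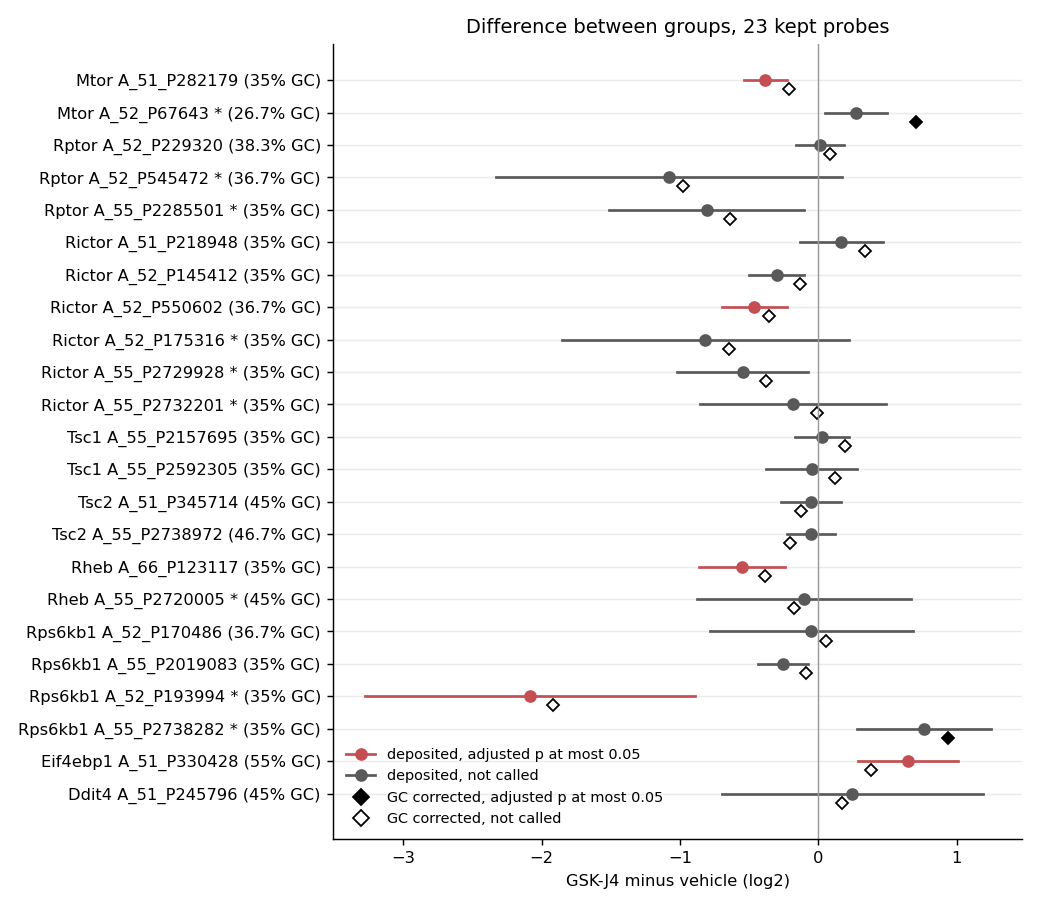
Difference between the groups (x axis, GSK-J4 minus vehicle, log2) of the 23 tested probes, with 95% confidence intervals before correction (circles, red where called) and the value after GC correction (diamonds, filled where called). An asterisk marks clone or Ensembl probes. The red circles are 4 lower probes and 1 higher, and the filled diamonds are Mtor A_52_P67643 and Rps6kb1 A_55_P2738282. Rps6kb1 A_52_P193994 (red) and Rptor A_52_P545472 were well above background on no GSK-J4 array.

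The rest of the pathway was represented by 61 genes with 129 probes, of which 113 were tested. By the same adjusted p, 13 of these were higher (11.5%) and 6 lower (5.31%), compared with the 8.39% and 8.42% of all probes, and their median difference was 0.05. None of the 21 probes of other complex subunits was called after adjustment. Past the thresholds of the methods were 1 probe of Prr5 as higher (0.60) and 1 Ensembl transcript probe of Telo2 as lower (-1.20). The other probe of Prr5 had 0.55. The RefSeq mRNA probes of Telo2 both had -0.02 (limma adjusted p = 0.837 and 0.943). Among the 21 probes the shared subunit Mlst8 differed by 0.16 (interval -0.02 to 0.34), the mTORC1 inhibitor Akt1s1 (PRAS40) by 0.36 and 0.41 on 2 probes (adjusted p = 0.065 and 0.0532), Deptor by 0.52 and 0.05, and the mTORC2 subunit Mapkap1 (Sin1) by -0.28 to 0.08 on 3 probes. The Tsc partner Tbc1d7, with -0.05 and 0.23, and the Rheb relative Rhebl1, with 0.09, were not called either. The paralogues of the targets were not called, with -0.29 for Rps6kb2 and 0.11 for Eif4ebp2.

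Among the 45 probes of amino acid sensing genes 7 were higher and 3 lower. These are 15.6% and 6.67%, beside 8.39% and 8.42% of all probes. Slc38a9, the lysosomal arginine sensor, has 2 tested probes. The one designed from a cDNA clone read 13.05, 13.06 and 13.01 in vehicle and 11.87, 12.13 and 12.40 in GSK-J4, with all GSK-J4 arrays lower. The difference of -0.91 (standard error 0.14; limma adjusted p = 0.0205), a 1.87-fold decrease, was the largest called in the list. The RefSeq mRNA probe of Slc38a9 went the other way, with a difference of 0.27, groups that overlapped and an adjusted p of 0.433. Sesn2, a leucine sensor that holds mTORC1 back, was higher by 0.56 (adjusted p = 0.0222). Seh1l of the GATOR2 complex was called lower on 1 of 2 probes, with -0.45 (adjusted p = 0.0332) and -0.27 (0.0739). Fnip2, a partner of folliculin, was called lower on 1 probe, with -0.49 (adjusted p = 0.0368), and had 0.25 on another (0.372). Itfg2 of the KICSTOR complex was called higher on 2 probes, by 0.38 and 0.30, while its Ensembl transcript probe was below vehicle on every GSK-J4 array, with -0.44 (adjusted p = 0.116).

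Among the 14 probes of upstream genes, 1 probe of the kinase Akt2 was higher by 0.41 (adjusted p = 0.027), and the other 2 probes of Akt2 had 0.24 and 0.14 and were not called. Of the 30 probes of targets 5 were higher (16.7%) and 2 lower (6.67%), beside 8.39% and 8.42% of all probes. Grb10, an adaptor that restrains insulin signalling and is a substrate of mTORC1, has 3 tested probes. The called one read 6.48, 6.14 and 6.50 in vehicle and 7.35, 6.96 and 7.12 in GSK-J4. All GSK-J4 arrays were higher, by 0.77 on average (1.71-fold, adjusted p = 0.0283). The other probes of Grb10 lay on the other side of 0 and were not called, a RefSeq mRNA probe with -0.43 (adjusted p = 0.182) and an Ensembl transcript probe with an adjusted p of 0.149 that was well above background on no GSK-J4 array. Tfeb, the transcription factor of lysosome genes that mTORC1 keeps out of the nucleus, was called higher on 1 of 4 probes, by 0.57 (adjusted p = 0.019), with 0.25 to 0.42 on the others. The Tfeb probes have 55% to 63.3% GC, and the median difference of all probes with 55% GC was 0.24. After GC correction the called Tfeb probe had 0.30 (limma adjusted p = 0.0793) and the others -0.01 to 0.15. Sgk1, a kinase activated through mTORC2, had a difference of -0.51 (adjusted p = 0.0433). Eif4e, the cap-binding protein held by 4E-BP1, had 1 probe called lower, with -0.33 and 35% GC, and 1 called higher, with 0.40 and 45% GC.

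After GC correction 9 of the 113 tested probes of the list were called, 6 higher and 3 lower, beside 1485 higher and 2120 lower of all 34443. Of the 19 earlier calls 5 were among the 9, next to new calls for Prr5l, Tti2 and Lamtor1 (higher) and Rragb (lower). The 5 were Slc38a9 (-0.98, adjusted p = 0.0232), Seh1l (-0.52, 0.036), 1 probe of Itfg2 (0.38, 0.0322), Grb10 (0.70, 0.0426) and the eEF2 kinase gene Eef2k (0.37, 0.0338), and Eef2k, like the new calls and Prr5 and Telo2 above, was chosen for mention after its values were seen. Without Vehicle 1 the called differences of the genes just named had the same signs, with -0.90 for Slc38a9 (adjusted p = 0.0707) and 0.82 for Grb10 (0.0767). Without Vehicle 1, Vehicle 2 or Vehicle 3 none of the list was called by limma, while 36, 35 and 34 of its probes had an unadjusted p of at most 0.05, and 2, 11 and 5 were called without GSK-J4 1, 2 and 3. Over all probes, 10467 of 34874 had such an unadjusted p without Vehicle 1 and 9606 of 34752 without Vehicle 2.

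**Figure D5:**
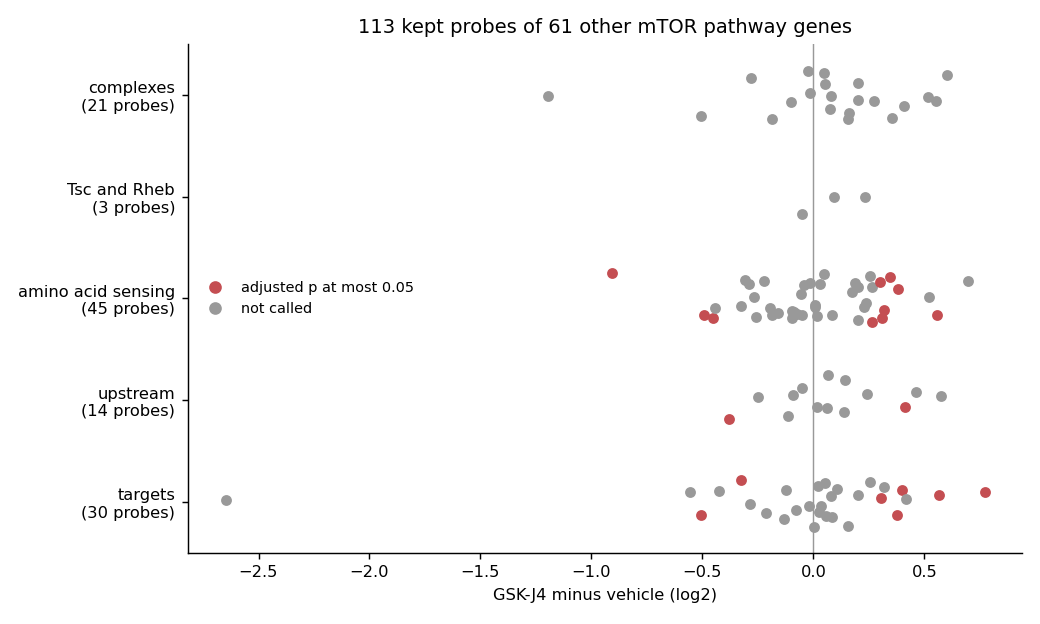
Difference between the groups (x axis, GSK-J4 minus vehicle, log2) of the 113 tested probes of 61 other mTOR pathway genes, by their role (y axis, with points spread vertically for view). Red points have an adjusted p of at most 0.05; they number 10 among 45 probes of amino acid sensing, 2 among 14 upstream, 7 among 30 of targets and 0 among the complex subunits and the Tsc and Rheb partners.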

How the data were processed

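Labelled RNA of 6 mice was measured in 1 colour on Agilent mouse arrays. The authors extracted spot intensities with Agilent Feature Extraction (10.7.1.1) and deposited them with detection flags, together with a table of log2 values described as quantile normalized in GeneSpring. The deposited log2 table gave the values reported here, and its columns were assigned by sample name, with 0 left unassigned. Scanner intensities served for detection flags and alternatives. Probes well above background on all arrays of a group were kept, 34443 of 56605, with spots of a probe averaged. The groups were compared with lmFit and eBayes in limma 3.58.1 (R 4.3.3), two-sided, with Benjamini-Hochberg adjustment over all kept probes. The fit was tested on simulated data. Where all arrays of a group left a probe near background, its fold is a bound. GC content was corrected by lowess within each array (span 30%). Signal over background and the number of arrays limit the precision.

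The members and lists were chosen with earlier results of these data known. The genes named are the 9, with all probes, 8 fixed relatives (Mlst8, Akt1s1, Deptor, Mapkap1, Tbc1d7, Rhebl1, Rps6kb2 and Eif4ebp2), the 10 others of the list with the largest called differences, and the 5 genes most correlated with Ddit4 and with Mtor. Replicate numbers were not treated as pairs in the main test. Deviations of same-numbered arrays correlated at 0.01, 0.03 and 0.08. The best-matching GSK-J4 array had the same number for Vehicle 1 and Vehicle 3 but not for Vehicle 2. With 3 arrays per group these values cannot settle whether the arrays were paired. Alternatives were other normalizations, background corrections, filters, variance models, array weights, the methods' t-test (with equal variances or without), GC correction, a replicate block, 1 value per gene and leaving out each array. ChIP-Seq and protein data were not analysed here, and 1 result of the list is not reported here.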

Additional observations from a re-analysis of the deposited data

How the results depend on the processing

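Limits: each comparison is of 1 slide with another, signal over background was lower on the GSK-J4 arrays, and dim probes give bounds only. Of 442 recomputed differences of single pathway probes, 342 kept their direction and side of the threshold, 16 were newly called and 27 changed sign. The other 57 were no longer called, which was possible only for the probes called at the outset. Of these, Mtor A_51_P282179 stayed called in 13 of 20 alternatives and Eif4ebp1 A_51_P330428 in 7 of 20. Rictor A_52_P550602 stayed called in 7 of 19, Rheb A_66_P123117 in 6 of 19 and Rps6kb1 A_52_P193994 in 6 of 18. The cause was not tested.

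The 5 pathway probes called at an adjusted p of at most 0.05 became 2 with GC correction, 2 with no filter, 2 with the other detection flag, 8 with array weights, 1 with either t-test, 3 with 1 probe a gene, 1 with the mean over the probes of a gene, and 0 to 4 without 1 array. The 19 of the list became 9 with each of GC correction, no filter and the other flag, 0 with the t-test without equal variances, 30 with scaling to the 75th percentile, 11 with 1 probe a gene, 10 with the mean and 0 to 11 without 1 array. The 5788 of all probes became 3605 with GC correction, 3765 with no filter, 3315 and 93 with the t-tests with and without equal variances, 3711 and 3509 by gene, and 11 to 4227 without 1 array. With the replicate block, with or without GC correction, 0 pathway probes, 0 of the list and 0 of all probes were called by limma, while 11, 37 and 11070 had an unadjusted p of at most 0.05 with the block alone. The t-test without equal variances gave 30 of the list at that p, beside 9301 of all 34443 probes.

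At the thresholds of the methods, the 4 pathway probes became 7 with the 75th percentile, 0 with normexp (8 at an unadjusted p of at most 0.05 in limma), 2 with the t-test without equal variances, and 1 and 2 by gene. The 5 of the list became 9, 3, 3, 3 and 0 (18 genes at an unadjusted p of at most 0.05 in limma) in that order, and 5 to 10 without 1 array, and the 4357 of all probes became 1620 with normexp and 2482 and 2474 by gene.

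None of the 5 called probes changed sign under any alternative run. Sign changed for Rictor A_51_P218948 (-0.0051), Tsc2 A_51_P345714 (0.19) and Rheb A_55_P2720005 (0.12) with the 75th percentile. It changed for Tsc1 A_55_P2592305 (0.025) and Rictor A_55_P2732201 (0.020) with normexp, and for Rps6kb1 A_52_P170486 (0.053) and Tsc1 A_55_P2592305 (0.12) with GC correction, with and without the block. With array weights it changed for Ddit4 (-0.0022), Rptor A_52_P229320 (-0.00065), Tsc1 A_55_P2157695 (-0.011) and Tsc1 A_55_P2592305 (0.00032). Without 1 array the differences ran from -0.13 to 0.48 for Ddit4, -0.023 to 0.037 for Rptor A_52_P229320, -0.017 to 0.059 for Tsc1 A_55_P2157695, -0.15 to 0.058 for Tsc1 A_55_P2592305, -0.47 to 0.092 for Rheb A_55_P2720005, -0.37 to 0.22 for Rps6kb1 A_52_P170486, -0.39 to 0.049 for Rictor A_55_P2732201 and -0.11 to 0.0080 for Tsc2 A_51_P345714.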
